A study of Homo sapiens with 20 samples.

Results

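CDR1 and OIP5-AS1 are 2 of the 62266 named genes in the quantified annotation, and 2 of its 18348 genes of the lncRNA class (long RNAs not annotated as coding). Both were taken by gene symbol, and they were chosen with their granule and exosome levels already known. Their values in granules against exosomes are therefore described and not tested. Total RNA was sequenced from cytoplasmic RNA granules and from exosomes, the small vesicles that cells release, both from HEK293 cells, an established human embryonic kidney line. The 20 libraries fell into 4 groups of 5 biological replicates: granules of HD-induced cells (HD granules), granules of control cells, exosomes of HD-induced cells (HD exosomes) and exosomes of control cells. HD stands for Huntington's disease, and the sources used here do not say how that state was induced in this line. All 4 groups share the cell line, and a dividing kidney-derived line is the only cell model. In libraries made from bulk material, fewer vesicles or granules and less of an RNA in each of them cannot be told apart.

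OIP5-AS1, also called cyrano, is a broadly expressed long noncoding RNA. It holds a long and deeply conserved pairing site for the microRNA miR-7. In mouse, that site triggers the decay of miR-7, a process that needs the ubiquitin ligase subunit ZSWIM8. CDR1 antisense, also called ciRS-7, is known mainly as a circular RNA of neurons with many short miR-7 sites, and it is cut at a site for miR-671. Both RNAs therefore belong to the network of miR-7, a small RNA that lowers the output of mRNAs such as those of EGFR and IRS2.

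The CDR1 entry is not by its identifier the antisense RNA. It held a single transcript, CDR1-201 of 789 bases (gene ENSG00000288642.1). The model of the same symbol and length in GENCODE release 29, under another gene identifier, is a single exon on the minus strand of chromosome X, chrX:140783578-140784366 of build GRCh38. RefSeq gives the names CDR1-AS and ciRS-7 to LINC00632 (ENSG00000203930.13), at chrX:140709759-140791357 of GRCh38.p14. Its release 29 models lie on the plus strand, and 5 of the 25 have exons in the CDR1 interval. LINC00632 is therefore shown beside both genes throughout. The entries describe linear transcripts, no entry was matched to the circle, and no value for the circular RNA is given. The sources used here do not give the strand setting of the quantification, so reads of CDR1 and of the RNA on its other strand cannot be told apart. OIP5-AS1 (ENSG00000247556.7, 72 transcripts) lies at chr15:41282697-41313338 of GRCh38.p14. At its distal end, the release 29 model of OIP5, a centromere protein gene, lies on the opposite strand.

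The sequences show miR-7 seed matches in OIP5-AS1 and in LINC00632, and none on the strand of the CDR1 model. In the mature microRNAs, taken from RefSeq (build GRCh38.p14), capitals mark the seed, bases 2 to 8, which pairs with targets. The miR-7 copy is that of MIR7-1 at chr9:83969811-83969834, minus strand, and MIR7-3 at chr19:4770700-4770723, plus strand, gives the same RNA. MIR671 lies at chr7:151238449-151238471, plus strand.

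hsa-miR-7-5p: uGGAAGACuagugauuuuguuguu

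hsa-miR-671-5p: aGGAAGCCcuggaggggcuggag

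The other sequences are from GENCODE release 29, build GRCh38, read along the transcript. The first is the stretch of 300 bases with most seed matches in exon 1 of LINC00632-211 (chrX:140783587-140783886, plus strand), with the miR-7 seed match GTCTTCC in capitals. The next is the start of the CDR1-201 model, 150 bases on the other strand (chrX:140784217-140784366, minus strand), with the reverse complement GGAAGAC in capitals. The third is the window in exon 2 of LINC00632-211 that pairs best with miR-671-5p (chrX:140784460-140784482, plus strand), with paired bases in capitals. The last is the miR-7 site in exon 4 of 4 of OIP5-AS1-201 (chr15:41300574-41300599, plus strand), with paired bases in capitals.

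LINC00632-211: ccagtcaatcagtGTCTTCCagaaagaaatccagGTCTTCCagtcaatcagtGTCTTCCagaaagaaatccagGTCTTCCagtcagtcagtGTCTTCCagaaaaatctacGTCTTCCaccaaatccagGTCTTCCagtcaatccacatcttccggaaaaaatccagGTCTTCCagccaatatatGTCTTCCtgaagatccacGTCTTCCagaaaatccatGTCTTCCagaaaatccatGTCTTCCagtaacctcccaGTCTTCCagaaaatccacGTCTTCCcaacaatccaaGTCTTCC

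CDR1-201: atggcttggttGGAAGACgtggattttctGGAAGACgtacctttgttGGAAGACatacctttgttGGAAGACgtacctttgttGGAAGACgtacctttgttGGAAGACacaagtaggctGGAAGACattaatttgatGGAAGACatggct

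LINC00632-211, miR-671 window: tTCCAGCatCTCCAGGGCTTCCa

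OIP5-AS1-201, miR-7 site: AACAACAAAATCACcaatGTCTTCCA

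LINC00632-211 held 53 copies of GTCTTCC in 1184 bases, with a median distance of 18 bases between their starts. LINC00632-206 held 67 copies in 1878 bases. Of the 25 LINC00632 models in release 29, 5 held the motif. Among the 9034 release 29 transcripts within 10% of the length of LINC00632-211, 9.98% held at least 1 copy, and no transcript of another gene held more than 3. The CDR1-201 model held no GTCTTCC on its own strand and 38 copies of its reverse complement. The miR-671 window paired at 19 of 23 bases without a gap.

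OIP5-AS1-201 held 3 copies of GTCTTCC in 8829 bases. Of the 1235 transcripts of like length, 49.2% held at least 1 copy, and 3.65% of those of other genes held as many as 3. The printed site is longer: 22 of the 24 bases of miR-7-5p pair with it, 14 bases and then 8 bases, around an unpaired stretch of 4 bases in the transcript and 2 in the microRNA. Of 206694 release 29 transcripts, 2 held these stretches in this order with at most 6 bases between them: this one and that of the microRNA gene MIR3529. Of the 10 OIP5-AS1 models in release 29, 2 held the motif GTCTTCC, OIP5-AS1-201 and OIP5-AS1-205. The files list later versions of both, that of OIP5-AS1-201 of 8881 bases. No library had a read assigned to either. Of the 72 OIP5-AS1 transcripts listed, those with no release 29 model were not searched. A sequence match is a description and no measure of binding.

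Depth limits the exosome values. Granule libraries held 11355356 to 24514989 reads on named genes and control exosome libraries 5300770 to 9039448. HD exosome libraries held 1327496 to 7405993, except replicate 4 with 713, in which even 3 reads would stand for 4208 CPM (counts scaled to a library of 1000000). That library held no read of CDR1, OIP5-AS1 or LINC00632 and says nothing about their level. Levels below are CPM scaled by edgeR's trimmed mean of M values (TMM) over all 20 libraries. HD exosome 2 had 86.6% of its reads on entries with no gene name. In HD granule 3, 0.103% of named reads fell on snoRNAs and scaRNAs, small nuclear guide RNAs, against 1.97% to 2.73% in the other 4 HD granule libraries. The 3 libraries stand apart, and results are also given without them.

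CDR1 was abundant in granules and scarce in exosomes. Its levels in HD granules 1 to 5 were 346, 379, 37.5, 422 and 863 CPM, against 170, 238, 438, 354 and 456 CPM in control granules. In HD exosomes they were 4.71, 3.56, 30.1, 0 and 24.5 CPM, against 6.01, 8.35, 18.1, 4.90 and 9.88 CPM in control exosomes. The lowest granule library, HD granule 3, lay just above the highest exosome library, HD exosome 3. Within a compartment the ranges of HD and control libraries overlapped. The exosome values rest on few reads, 0 to 67.9 estimated reads per HD exosome library and 24.4 to 102 per control exosome library. Per length, the mean was 118 ± 78.0 TPM (transcript units scaled to a library of 1000000) in HD granules and 120 ± 60.4 TPM in control granules (SD, n = 5 each). It was 8.92 ± 9.33 TPM in HD exosomes without replicate 4 (SD, n = 4) and 3.56 ± 1.93 TPM in control exosomes (SD, n = 5).

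LINC00632, on the other strand, also stood far higher in granules, at higher levels than CDR1. It stood at 1743, 2076, 325, 3104 and 4797 CPM in HD granules, against 1098, 971, 2180, 1790 and 2866 CPM in control granules. In HD exosomes it stood at 160, 199, 134, 0 and 316 CPM, against 52.1, 276, 182, 140 and 176 CPM in control exosomes. HD granule 3 was again the lowest granule library and HD granule 5 the highest, as for CDR1. By TPM, LINC00632 ranked between 2 and 6 among lncRNA genes in every granule library, and CDR1 between 4 and 12. In the 9 deeper exosome libraries LINC00632 ranked between 5 and 17 and CDR1 between 13 and 495.

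OIP5-AS1 levels overlapped between the compartments. It stood at 23.2, 36.7, 16.7, 63.0 and 51.4 CPM in HD granules, against 22.5, 31.3, 24.5, 31.0 and 13.3 CPM in control granules. In HD exosomes it stood at 12.3, 53.4, 47.8, 0 and 29.9 CPM, against 18.3, 20.7, 26.7, 19.6 and 20.1 CPM in control exosomes. All 4 groups overlapped. Control exosomes lay closest together. HD exosomes ran widest only with the 0 CPM of replicate 4. Without it their SD was 18.6 CPM, against 19.2 CPM in HD granules. HD exosome 1 was below every control exosome library, and HD exosomes 2, 3 and 5 were above all of them. Estimated reads were 358 to 1116 in HD granules, 160 to 653 in control granules, 64.6 to 82.5 in the 4 deeper HD exosome libraries and 95.6 to 170 in control exosomes. By TPM the gene ranked between 72 and 270 among lncRNA genes in granules and between 26 and 113 in the deeper exosome libraries.

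**Figure D1:**
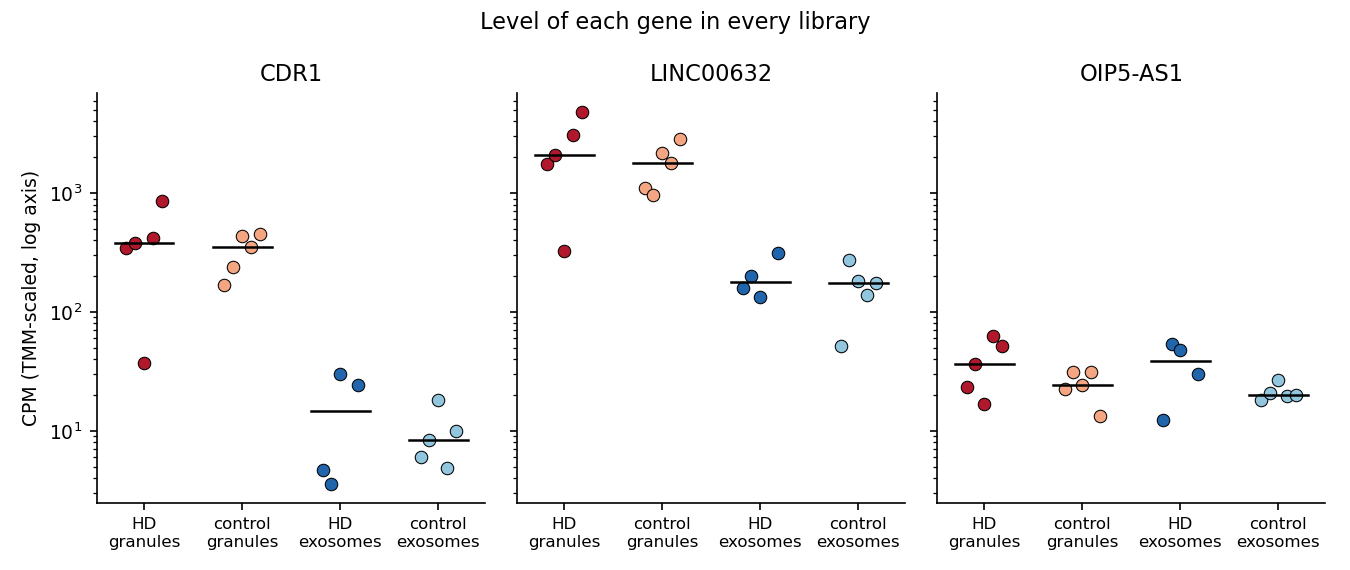
Level of CDR1, LINC00632 and OIP5-AS1 in every library, in TMM-scaled CPM on a log axis, by group. Each point is 1 library and each line the median of the points drawn. HD exosome 4, with no read of these genes, is not drawn. CDR1 and LINC00632 lie higher in granules, with HD granule 3 lowest at 37.5 and 325 CPM, while OIP5-AS1 overlaps in all groups.

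The order of the group levels was not the same for CDR1 and OIP5-AS1. CDR1 averaged 410 ± 296 CPM in HD granules, against 331 ± 125 CPM in control granules, and 12.6 ± 13.7 CPM in HD exosomes, against 9.44 ± 5.20 CPM in control exosomes (SD, n = 5 each). The HD exosome mean was 15.7 ± 13.6 CPM without replicate 4. The wide gap in this order lies between control granules and HD exosomes. With or without replicate 4, both neighbouring pairs within a compartment differed by less than the larger SD of the pair. For OIP5-AS1 the means were 38.2 ± 19.2 CPM in HD granules, 28.7 ± 22.7 CPM in HD exosomes, 24.5 ± 7.38 CPM in control granules and 21.1 ± 3.29 CPM in control exosomes (SD, n = 5 each). The HD exosome mean was 35.9 ± 18.6 CPM without replicate 4. No neighbouring pair in that order differed beyond the larger SD of the pair.

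Granules against exosomes gave the following fold changes, fitted with edgeR and, for these genes, described only. In HD-induced cells CDR1 was higher in granules by a log2 fold change of 4.76 (standard error 0.84), or 27.2-fold. In control cells the log2 fold change was 5.04 (standard error 0.40), or 33.0-fold. Values without HD exosome 4 and without HD granule 3 were 4.69 and 5.05 in HD-induced cells. The CDR1 groups did not overlap in either state, though in HD-induced cells only 37.5 CPM (HD granule 3) against 30.1 CPM (HD exosome 3) parted them. The share of all genes that separate in this way was not counted, so nothing is read from it. Among all genes, 17.7% were called in HD-induced cells (adjusted p under 0.05), 11.9% higher in granules and 5.77% lower. In control cells 62.4% were called, 30.0% higher in granules and 32.5% lower. The choice of these genes used this contrast, and nothing is read from the CDR1 values beside those shares.

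LINC00632 had log2 fold changes of 3.69 (standard error 0.70), or 12.9-fold, in HD-induced cells and of 3.34 (standard error 0.43), or 10.1-fold, in control cells. The sum of CDR1 and LINC00632 gave 3.50 in control cells. OIP5-AS1 gave 0.16 (standard error 0.46) in HD-induced cells and 0.14 (standard error 0.23) in control cells. The first of these was less settled. It was 0.07 without HD exosome 4, 0.33 without HD granule 3, 0.44 without HD exosome 2, 0.54 without all 3 of these libraries, and 1.05 with voom and quality weights. With 1 library left out at a time it ran down to -0.12, while the control value ran from 0.08 to 0.39.

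Among tested lncRNA genes, 178 of 704 were called higher and 2 lower in granules of HD-induced cells, and 350 of 745 higher and 35 lower in granules of control cells. In HD-induced cells the median log2 fold change of these lncRNA genes was 1.34, against 0.17 for all tested genes. In control cells it was 1.33, against -0.02 for all tested genes. A larger value than that of CDR1 was found for 49 lncRNA genes in HD-induced cells and 27 in control cells. For LINC00632 these numbers were 70 and 76, and for OIP5-AS1 557 and 590.

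**Figure D2:**
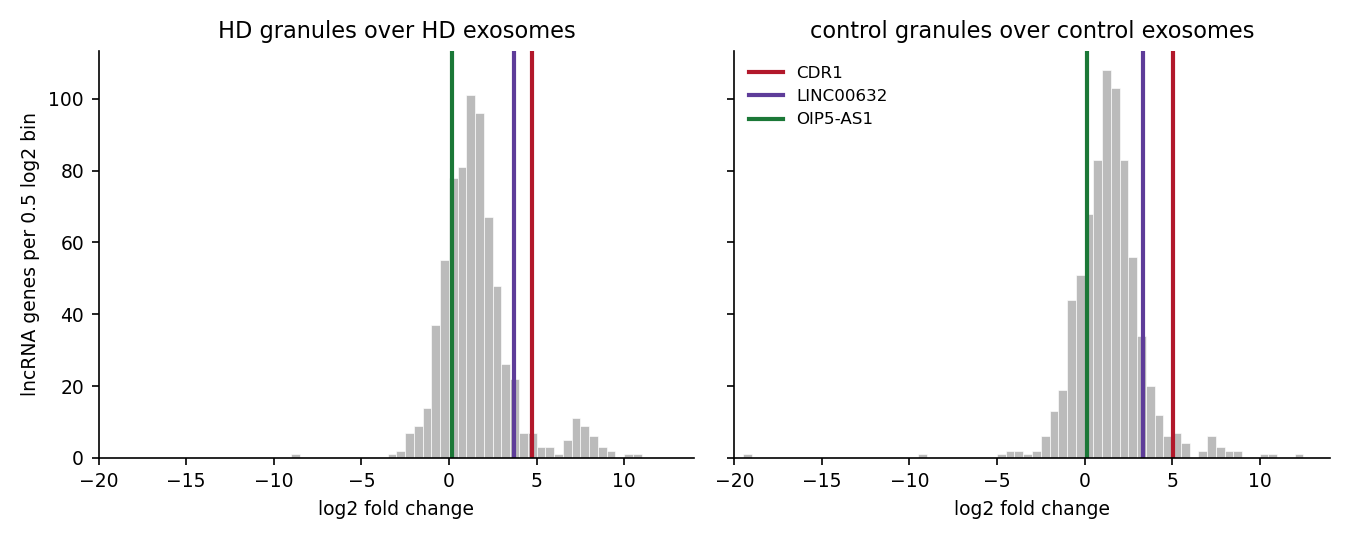
Number of lncRNA genes in each 0.5-wide bin of the log2 fold change of granules over exosomes, in HD-induced cells (left) and control cells (right). Coloured lines mark CDR1 (4.76 and 5.04), LINC00632 (3.69 and 3.34) and OIP5-AS1 (0.16 and 0.14). OIP5-AS1 lies left of the bulk of the class.

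Nearly all LINC00632 reads fell on transcripts that share sequence with the CDR1 interval. The share on models with exons there was 88.8% to 96.2% in HD granules and 91.6% to 97.3% in control granules. It was at least 96.9% in HD exosomes without replicate 4 and at least 98.7% in control exosomes. LINC00632-206, whose exons span the whole interval, and LINC00632-211, whose exons cover 88.1% of it, took most of them. LINC00632-206 held 43.8% to 56.2% of LINC00632 reads in HD granules and 50.5% to 56.2% in control granules. LINC00632-211 held 41.1 ± 4.16% in HD granules and 39.7 ± 3.03% in control granules (SD, n = 5 each). LINC00632-226, which has no release 29 model, held 2.03% to 10.9% in 9 granule libraries and had no read in HD granule 3 or in any exosome library. Its overlap with the CDR1 interval is not known. It was counted as outside, so the shares on models with exons in the interval are lower bounds. In exosomes the split varied more, and control exosome 1 had no read on LINC00632-206 and 76.0% on LINC00632-211.

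CDR1 took a smaller part of the reads of this locus in most exosome libraries. Its part of the reads of both genes was 16.6%, 15.4%, 10.3%, 12.0% and 15.2% in HD granules, against 13.4%, 19.7%, 16.7%, 16.5% and 13.7% in control granules. In HD exosomes 1, 2, 3 and 5 it was 2.83%, 1.79%, 18.5% and 7.20%, against 10.3%, 2.96%, 9.03%, 3.43% and 5.26% in control exosomes. HD exosome 3, with 41.3 CDR1 reads, lay within the granule range, and control exosome 1 lay at its lower edge. The ratio of CDR1 TPM to LINC00632-211 TPM ran from 0.514 to 1.48 in granules and from 0.0335 to 0.736 in exosomes. Both shares depend on how the quantifier divided reads between overlapping entries, and their part in the CDR1 fold change was not tested.

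**Figure D3:**
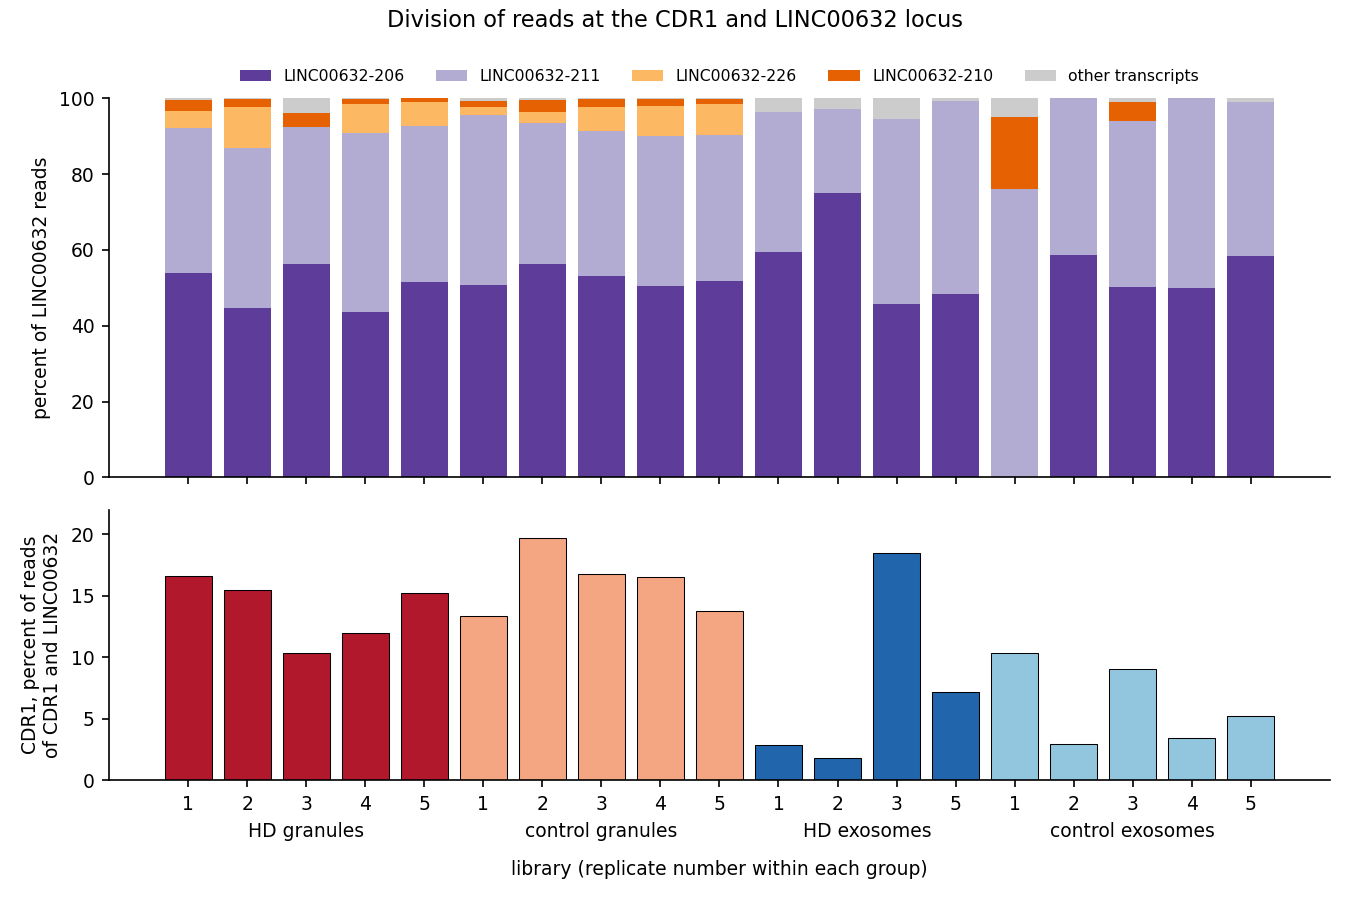
Top, percent of LINC00632 reads on each of 4 transcripts and on all others, per library. Bottom, CDR1 reads as a percent of the reads of CDR1 and LINC00632 together, per library. HD exosome 4 held no such read and is left out. LINC00632-206 and LINC00632-211 fill most of each bar, and the CDR1 part is 10.3% to 19.7% in granules and 1.79% to 18.5% in exosomes.

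HD-induced against control cells was not the contrast the genes were chosen on, and it was tested across all genes. In granules neither gene was called. OIP5-AS1 gave a log2 fold change of 0.61 (standard error 0.37, 95% interval -0.21 to 1.44, adjusted p = 1.00, edgeR quasi-likelihood test). CDR1 gave 0.29 (standard error 0.59, interval -1.02 to 1.60, adjusted p = 1.00) and LINC00632 0.42 (standard error 0.57, interval -0.84 to 1.68, adjusted p = 1.00). Over all genes, 0 of 16750 (0%) were called by edgeR, 215 had an unadjusted p under 0.05, DESeq2 called 4 and limma's voom called 5. The CDR1 direction rested on HD granule 5: without that library its log2 fold change was -0.19, and without HD granule 3 it was 0.60. On the log2(TPM + 1) scale it was -0.12. In HD granule 3 the summed level of 14 neuron markers was 169 CPM, against 54.5 to 68.5 CPM in the other HD granule libraries and 66.0 to 76.0 CPM in control granules. Each HD granule library had a read of 12 or 13 of the 14 neuron markers and each control granule library of 11 to 14, and their part in these values was not tested.

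In exosomes neither gene was called either. OIP5-AS1 gave 0.76 (standard error 0.35, 95% interval 0.01 to 1.51, unadjusted p = 0.0484, adjusted p = 0.598, edgeR). CDR1 gave 0.74 (standard error 0.59, interval -0.53 to 2.00, adjusted p = 0.647) and LINC00632 0.27 (standard error 0.38, interval -0.55 to 1.08, adjusted p = 0.801). Of 12936 genes 0 (0%) were called by edgeR, 0 by DESeq2 and 0 by limma's voom, and 980 had an unadjusted p under 0.05. Without HD exosome 4 the values were 0.76 for OIP5-AS1 and 0.74 for CDR1. With voom and quality weights the values were 0.086 for OIP5-AS1 (adjusted p = 0.99, limma) and -0.54 for CDR1. OIP5-AS1 passed the test only when HD exosome 1, its lowest deep library, was left out (log2 fold change 1.07, adjusted p = 0.0399, with 497 genes called in that fit). Over all its alternatives the adjusted p ran from 0.0399 to 1.00. Without HD exosome 2 the value was 0.50.

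Markers of other cell types were read in the same exosome libraries, and the summed ranges of HD and control exosomes overlapped for each list. The summed level of 7 keratinocyte markers was 19.8 to 958 CPM (median 206) in HD exosomes without replicate 4 and 7.79 to 97.5 CPM (median 46.2) in control exosomes. It was lowest in HD exosome 1 among the HD exosomes. A read of 3 to 6 of the 7 was found in HD exosomes and of 4 to 6 in control exosomes. DSG1, KRT1 and KRT5 were present in all 9. For 6 red blood cell and platelet markers the sum was 46.1 to 1240 CPM (median 180) in HD exosomes and 41.8 to 131 CPM (median 47.7) in control exosomes. PPBP had under 1 read in all 9, and ALAS2 and HBB were present in all 9. A read was found for 3 or 4 of these 6 markers in HD exosomes and for 4 in control exosomes. Leukocyte markers summed to 1.99 to 24.4 CPM in HD exosomes and 1.71 to 5.09 CPM in control exosomes, with 2 or 3 of 3 having a read. Neuron markers summed to 74.6 to 155 CPM (median 115) in HD exosomes and 108 to 196 CPM (median 138) in control exosomes, with 7 to 11 of 14 having a read in HD exosomes and 9 to 13 in control exosomes. The part of these markers in the OIP5-AS1 and CDR1 values was not tested.

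The difference between the HD effect in granules and that in exosomes was tested over all 20 libraries. It was -0.08 (standard error 0.53, 95% interval -1.18 to 1.02, adjusted p = 1.00, edgeR) for OIP5-AS1 and -0.38 (standard error 0.87, interval -2.19 to 1.43, adjusted p = 0.984) for CDR1. Neither was among the 3 genes called of 16154 (0.0186%), of which 1 was higher (0.00619%) and 2 were lower (0.0124%). For both genes the sign of this difference changed under some alternatives. The intervals span more than 1 log2 unit in either direction.

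**Figure D4:**
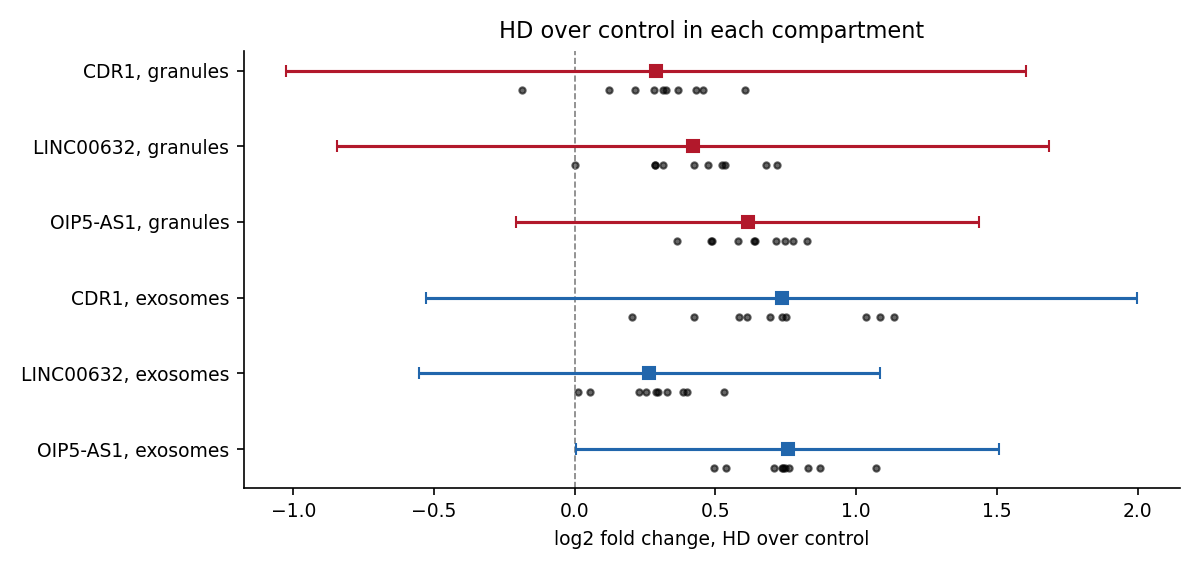
Log2 fold change of HD over control for each gene in granules (red) and exosomes (blue). Squares are the fitted values with 95% intervals, and small points are the values when 1 library is left out. The interval of OIP5-AS1 in exosomes begins at 0.01, and the other 5 intervals include 0.

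OIP5-AS1 reads were spread over many transcripts. Of the 72 listed, 48 had at least 1 read in some library, 4 to 17 had a read in any 1 of the 19 deeper libraries, and 0 had a read in all 19. The transcript with the highest share of the gene's TPM differed between libraries, with 12 different leaders. OIP5-AS1-267, of 2678 bases, had a read in 14 libraries, as OIP5-AS1-225 did, and no transcript had one in more. On average it held 9.25% of the gene's TPM in HD granules, against 13.3% in control granules, and 3.31% in HD exosomes without replicate 4, against 7.62% in control exosomes.

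OIP5-AS1-221, of 1970 bases, led in HD granules 2, 4 and 5, with 33.3%, 50.02% and 38.3% of the gene's TPM, or 205, 458 and 291 estimated reads. It had no read in HD granules 1 and 3, held 14.04% in control granule 3, and had no read in the other control granules or in any exosome library. It did not pass the count filter, and without the filter it gave an adjusted p of 0.62 (edgeR, HD over control granules). Of 8 OIP5-AS1 transcripts tested in granules 0 were called, as were 0 of all 57417 transcripts (0%), of which 569 had an unadjusted p under 0.05. In exosomes no OIP5-AS1 transcript passed the filter, and 0 of 25005 transcripts (0%) were called. Without it 29 were tested, 0 were called, and the lowest adjusted p was 0.0854, while 462 of all 130295 transcripts (0.355%) were called.

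OIP5-AS1-215, of 4477 bases, had the highest mean TPM over all libraries. It held 3.57 ± 4.65% of OIP5-AS1 reads in HD granules and 4.67 ± 5.94% in control granules (SD, n = 5 each; exact 2-sided permutation test, p = 0.762, adjusted p = 0.968). Its share was 20.05 ± 30.9% in HD exosomes (SD, n = 4) and 23.6 ± 26.6% in control exosomes (SD, n = 5; exact 2-sided permutation test, p = 0.968, adjusted p = 0.968). The smallest p these tests allow is 0.00794 in granules and 0.0159 in exosomes. The SDs exceed the means in granules and in exosomes, so these shares give little information at this depth.

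**Figure D5:**
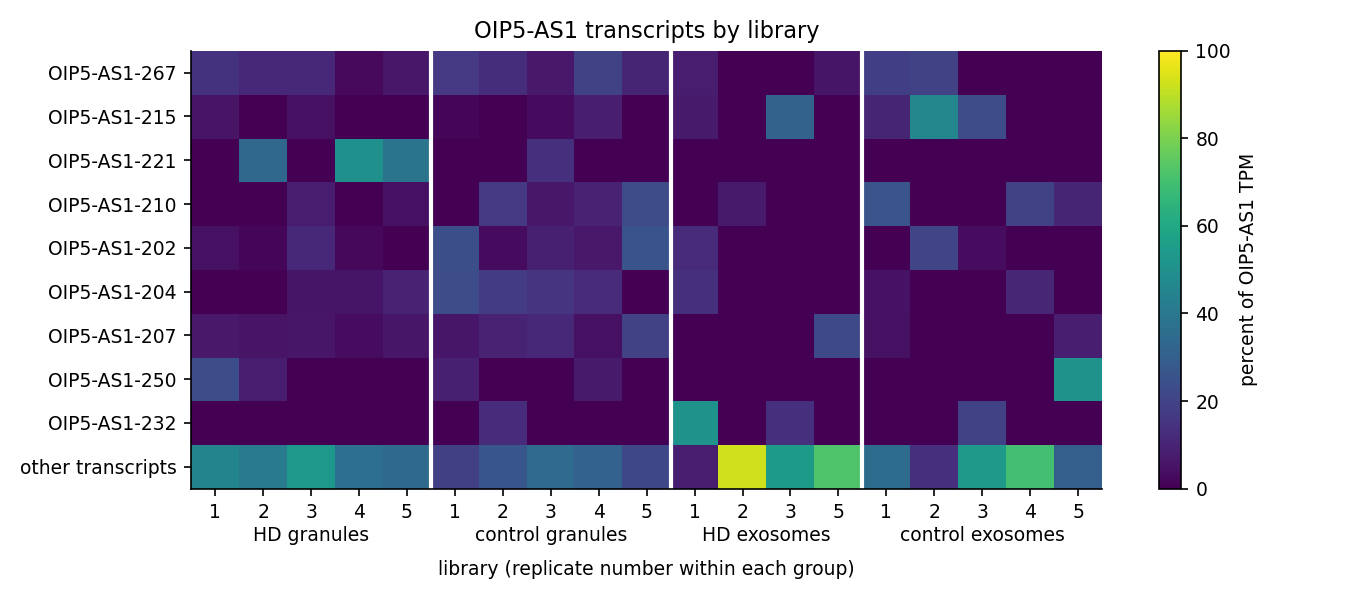
Percent of OIP5-AS1 TPM on each of the 9 transcripts that held at least 5% on average, and on all others, in the 19 deeper libraries. Colour runs from 0 to 100 percent. OIP5-AS1-221 stands out in HD granules 2, 4 and 5, and no transcript is present throughout.

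Genes of the miR-7 network and of microRNA function were then read in the same fits, from lists chosen with earlier results known. Their p-values in granules against exosomes therefore describe the genes and are no independent test of the lists. In HD against control, 0 members of the 7 lists were called in either compartment. As 0 of all 16750 genes (0%) were called in granules and 0 of 12936 (0%) in exosomes, this count is not particular to the lists. In granules against exosomes the counts follow. Those with all libraries are read against 11.9% of all genes called higher and 5.77% lower in HD-induced cells. In control cells these shares were 30.0% higher and 32.5% lower. Counts without control granule 2 come from a separate fit, with 9544 genes called, against 9227 with all libraries. The shares of all genes in that fit are not given here, so nothing is read from those counts.

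Of 8 miR-7 partners besides LINC00632, 7 were in the quantified annotation. HNRNPK and ZSWIM8 had enough reads to test, and the others of the 7, among them microRNA genes, did not. HNRNPK, the host gene of MIR7-1, was lower in granules of control cells, at 466 CPM against 703 CPM in control exosomes (log2 fold change -0.68, standard error 0.11, adjusted p = 0.000156, edgeR). ZSWIM8 stood at 43.1 CPM in control granules and 55.7 CPM in control exosomes (log2 fold change -0.46, adjusted p = 0.0828). In HD-induced cells 0 of these 2 genes passed.

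Of 13 genes of Argonaute proteins and microRNA processing, 2 were higher and 1 lower in granules of HD-induced cells, and 7 were higher and 5 lower in granules of control cells. Without control granule 2 the control counts were 7 higher and 2 lower. Their median log2 fold change was 0.42 in HD-induced cells, against 0.17 for all genes, and 0.35 in control cells, against -0.02. AGO1, a microRNA effector protein, fell in control granules to 206 CPM, against 1073 CPM in control exosomes (log2 fold change -2.47, standard error 0.15, adjusted p = 1.46e-07, edgeR). TARBP2, a partner of DICER1, also fell (-1.39, adjusted p = 5.43e-05, edgeR). DICER1, which cuts microRNA precursors, rose in control granules to 323 CPM, against 184 CPM in control exosomes (0.72, adjusted p = 0.000238, edgeR), and TNRC6B, a silencing scaffold, rose by 0.66 (adjusted p = 0.0011, edgeR).

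Of 23 published miR-7 targets, 2 were higher and 2 lower in granules of HD-induced cells, and 7 were higher and 12 lower in granules of control cells. The median was 0.17 in HD-induced cells, against 0.17 for all genes, and -0.32 in control cells, against -0.02. In control cells PSME3, a proteasome activator, gave -1.96, RELA, a subunit of NF-kappaB, -1.82, VDAC1, a mitochondrial channel, -1.45, and SKP2, a ubiquitin ligase subunit, -1.41 (adjusted p between 6.82e-08 and 1.74e-06, edgeR).

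Of 12 genes of circular RNA formation and export, 0 were higher and 1 lower in granules of HD-induced cells, and 0 were higher and 8 lower in granules of control cells. The control count of lower genes was 5 without control granule 2. The median was -0.27 in HD-induced cells and -0.45 in control cells. In control cells HNRNPL, a splicing factor, gave -1.86, DDX39A and DDX39B, helicases of RNA export, -1.35 and -0.90, and ILF2, a double-stranded RNA binding partner, -1.34 (adjusted p between 1.46e-07 and 1.17e-05, edgeR).

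Of the 6 neighbours of OIP5-AS1 and ELAVL1, 0 were higher and 2 lower in granules of HD-induced cells, and 0 were higher and 3 lower in granules of control cells. The median was -0.44 in HD-induced cells and -0.55 in control cells. ELAVL1, which encodes HuR, a protein known to bind OIP5-AS1, fell in control granules to 69.6 CPM, against 232 CPM in control exosomes (-1.83, standard error 0.09, adjusted p = 5.65e-08, edgeR). CHP1, a calcium-binding protein gene, and RTF1, a transcription elongation factor gene, fell by 2.46 and 0.65 on the log2 scale (adjusted p = 8.97e-08 and 0.00198, edgeR). OIP5 stood at 21.8 CPM in control granules and 23.8 CPM in control exosomes (-0.21, adjusted p = 0.506).

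Of 8 other lncRNAs without a snoRNA tested in control cells, 4 were higher and 1 lower in granules, and of 9 tested in HD-induced cells 1 was higher and 1 lower. Without control granule 2, 6 of 9 were higher in control cells. The median was 0.40 in both states. Of all tested lncRNA genes, 350 of 745 were higher in control cells and 178 of 704 in HD-induced cells. The medians of that class were 1.33 and 1.34, above those of this list. MIR17HG, the host of a microRNA cluster, rose in control granules to 52.1 CPM, against 6.25 CPM in control exosomes (2.98, standard error 0.66, adjusted p = 0.0019, edgeR). PVT1, CYTOR and JPX rose by 1.13, 0.95 and 0.45 (adjusted p between 0.000885 and 0.0245, edgeR).

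Of 7 RNAs kept in the nucleus and tested in control cells, 5 were higher and 1 lower in granules, and of 5 tested in HD-induced cells 4 were higher and 0 lower. The median was 6.18 in HD-induced cells and 5.08 in control cells. SCARNA5, a guide RNA of Cajal bodies, rose in control granules to 1767 CPM, against 19.5 CPM in control exosomes (6.41, standard error 0.24, adjusted p = 1.16e-08, edgeR). SCARNA10, SCARNA13 and SCARNA6 gave 6.20, 6.15 and 5.08 (adjusted p between 1.57e-08 and 6.85e-08, edgeR). These scaRNAs made up most of the higher calls in control cells, and the median there is the SCARNA6 value. The share of named reads on snoRNAs and scaRNAs was 0.103% to 2.73% in HD granules and 1.16% to 2.12% in control granules. It was 0.0258% to 0.09% in HD exosomes without replicate 4 and 0.0219% to 0.0483% in control exosomes. The summed level of the 9 nuclear RNAs was 3244 to 19163 CPM in HD granules and 8129 to 13082 CPM in control granules. It was 502 to 4817 CPM in HD exosomes without replicate 4 and 4089 to 12498 CPM in control exosomes, so these sums overlapped between compartments. SCARNA10, the highest of the named scaRNAs in control exosomes, averaged 101 CPM there, so most of that sum lay on other RNAs of the list. RN7SK had under 1 read in every granule library. The part of nuclear RNA in the CDR1 value was not tested.

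The genes whose levels ran most like those of each member were found by Pearson correlation of log2 CPM over the 19 deeper libraries, among 11305 genes. These values describe the libraries, which share compartment and depth, and carry no p. For CDR1 they included PDE4D (0.97), ZNF292 (0.97), ALG8 (0.96) and HDX (0.96), and LINC00632 came 66th (0.94). For OIP5-AS1 they were LRCH3 (0.76), CDC42 (0.76), HAUS2 (0.76), VRK2 (0.75) and AGGF1 (0.73). CDC42, a small GTPase, averaged 424 CPM in HD granules, against 394 CPM in control granules, and 406 CPM in HD exosomes without replicate 4, against 314 CPM in control exosomes. CDR1 and OIP5-AS1 correlated at 0.30. With the group means removed, the value for the pair was 0.47, and that for CDR1 and LINC00632 was 0.71.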

How the data were processed

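Members and gene lists were chosen with earlier results of these data known. Per the submitters' processing notes, reads were handled with Trimmomatic, cutadapt, FastQC and Salmon against build GRCh38.p14; the sources used here give no versions, annotation release or strand setting. Per the labels, libraries were stranded, from total RNA, read in pairs of 100 bases. The deposited files hold, for each of 921552 entries, an expected count (estimated reads) and a TPM value. Of these, 251955 were named transcripts of 62266 genes; the 669597 unnamed entries stayed out of gene sums and library sizes, and may share sequence with named genes. They held 24.9% to 59.2% of reads per library, and 86.6% in HD exosome 2. Summed marker levels are CPM of named reads without TMM.

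Expected counts were summed by gene, rounded, filtered with filterByExpr, scaled by TMM and tested with edgeR 4.0.16 (robust quasi-likelihood, R 4.3.3), Benjamini-Hochberg over all genes. The threshold was an adjusted p under 0.05. Pairs of groups were fitted alone, the interaction over all 20 libraries. Exact permutation tests used scipy 1.17.1. Alternatives were DESeq2 1.42.0, voom (limma 3.58.1), other scalings and filters, a replicate block, and each library left out in turn. The p-values weigh group differences against the spread between these libraries. On simulated counts, 86% of 200 genes changed by 2 log2 units were recovered in HD over control granules (16121 genes) and 88% in exosomes (12445 genes), with 0.578% and 5.88% of calls false. In granules over exosomes 63.5% were recovered in HD-induced cells (13963 genes) and 94% in control cells (14471 genes), with 7.3% and 2.08% of calls false. Only genes above a minimum mean CPM were changed. Smaller changes, such as the HD-over-control values of CDR1 and OIP5-AS1, were not simulated. Intervals are 95%; floors are 3 counts and cover counting error only.

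Named genes were the 2 members, LINC00632, up to 4 tested genes per list with the smallest p in control granules over control exosomes, and the 5 most correlated genes per member (prior count 2, mean at least 5 CPM, libraries of at least 100000 named reads). Transcripts were named at 5% or more of the gene's mean TPM; shares needed 20 reads. Of the 5 genes most like CDR1, 1 is not reported here. OIP5 and OIP5-AS1-225 were named after their values were seen. Motifs were searched along release 29 transcripts.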

Additional observations from a re-analysis of the deposited data

Results flagged for a closer look

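Among 56 sets of 4 or 5 libraries of 1 group, 8 held a value far from the others of its group, and chance alone flags about 1 in 20 such sets.

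In HD granule 3 the share of named reads on snoRNAs and scaRNAs was 0.103%, below the other HD granules, and the summed level of neuron markers was 169 CPM, above them. In HD exosome 2 the share of reads on unnamed entries was 86.6% and the share of named reads on snoRNAs and scaRNAs 0.08999%, both above the other HD exosomes. In HD exosome 5 the red blood cell and platelet markers summed to 1240 CPM, above the other HD exosomes.

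At the CDR1 locus, LINC00632-211 held 44.98% of LINC00632 reads in control granule 1, above the other control granules. In control exosome 1 it held 76.0%, above the other control exosomes, while LINC00632-206 held 0%, below them.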

How the results depend on the processing

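OIP5-AS1 kept a positive HD-over-control value in granules under every alternative run for it. LINC00632, for which TPM was not run, ran from 0.0015 (without HD granule 5) to 0.72. CDR1 and LINC00632 kept a positive granule-over-exosome value in both states under those run. Leaving out 1 library at a time gave these ranges of HD over control. In granules OIP5-AS1 ran from 0.36 to 0.83 and CDR1 from -0.19 (without HD granule 5) to 0.60, with 0 to 1 genes called. In exosomes OIP5-AS1 ran from 0.50 to 1.07 and CDR1 from 0.20 to 1.13, with 0 to 497 genes called. Between compartments in HD-induced cells about 1.2e+03 (without HD granule 2) to 5346 genes (without HD granule 3) were called. The HD effect in granules minus that in exosomes ran from -0.37 to 0.20 for OIP5-AS1, from -0.85 to 0.074 for CDR1 and from -0.21 to 0.52 for LINC00632 (-0.06 without control exosome 2). The OIP5-AS1-215 share difference ran from -2.45 to 1.33 percentage points in granules and from -18.6 to 5.13 in exosomes.

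DESeq2 and voom called 4 and 5 genes in HD over control granules. In HD over control exosomes 275 genes were called with no count filter and 7 with the library size of all reads. In HD granules over HD exosomes the counts were 4244 with no filter, 6029 with voom, 872 with all reads and 5758 without HD exosomes 2 and 4 and HD granule 3. That last setting gave 0.60 for CDR1 in granules, 0.48 for OIP5-AS1 in exosomes with 0 genes called, and 0.37 for the OIP5-AS1 difference of effects. Voom gave 0.086 for OIP5-AS1 and -0.54 for CDR1 in exosomes, 1.05 for OIP5-AS1 in HD granules over HD exosomes, and differences of effects of 0.74 for OIP5-AS1 and 0.63 for CDR1. All reads gave 0.16 for the OIP5-AS1 difference. On log2(TPM + 0.1), HD over control was -0.57 for OIP5-AS1 in exosomes (0.50 without HD exosome 4), and -0.12 in granules and -1.01 in exosomes for CDR1. On log2(TPM + 1) these were -0.023, -0.12 and -0.093. The causes were not tested.

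CDR1 and LINC00632 summed, and the TPM values without HD exosome 4, were chosen after seeing the data. The sum gave 3.50 in control granules over control exosomes and 0.16 for the difference of effects. Only 1 gene has the symbol CDR1, so a sum over the symbol gives the same value.

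Replicate numbers gave no steady pairing of the libraries. Correlations of same-numbered HD and control libraries ran from -0.155 to 0.665 in granules and from -0.0975 to 0.392 in exosomes. Between granules and exosomes they ran from -0.322 to 0.405 in control cells and from -0.0215 to 0.355 in HD-induced cells. Replicate 5 matched its own number best in every comparison, and replicate 1 in all but HD over control granules. Replicates 2, 3 and 4 never did, so a pairing by number is not settled. With the replicate number as a block, 0 genes were called in HD over control granules, 296 in exosomes and 4006 in HD granules over HD exosomes; OIP5-AS1 in exosomes was 0.57 and CDR1 0.25. Depth limits the exosome values, at 5.09 to 102 CDR1 reads per library outside HD exosome 4.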
